A study of Ovis aries with 23 samples.

Results

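TGFBI and SULF2 are 2 of the 20 features measured in lung tissue of 23 sheep with experimental acute respiratory distress syndrome (ARDS). They are described as a pair because both encode proteins that belong to or modify the extracellular matrix, and because both were selected by the study as markers expected to be higher in the hypoinflammatory form. This expectation came from blood leukocytes of human patients. Features carry only tag names in the deposited values, and none of the tables used here links a tag to its gene. TGFBI is the feature T012 and SULF2 the feature T025, which stand at places 12 and 15 of the table, the places of these genes among the 22 genes of the study's probe table. The gene names used here rest on that order.

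All 23 animals were anesthetized, mechanically ventilated female Merino-Dorset crossbreed ewes between 1 and 3 years old. Phenotype 1 (Ph1, hypoinflammatory, n = 14) was induced with intravenous oleic acid (OA). Phenotype 2 (Ph2, hyperinflammatory, n = 9) was induced with the same oleic acid followed by intravenous lipopolysaccharide (LPS), a bacterial cell wall component, so both groups carried the oleic acid injury. No uninjured sheep were analysed here, and the values therefore compare both injuries without giving a change from healthy lung. Lung was harvested at 6 h (5 Ph1 and 3 Ph2 animals), 12 h (4 and 3) or 24 h (5 and 3). CELTIC contributed 12 animals (8 Ph1, 4 Ph2), which were control sheep of a trial of stem cells and extracorporeal support that received neither. STARDUST contributed 11 pilot animals (6 Ph1, 5 Ph2) of another flock, among them all 8 sheep of the 24 h time point and no Ph1 sheep of the 12 h time point. Each value came from RNA of the upper, middle and lower right lobe, pooled per animal. The RNA integrity number reported for the upper lobe of SD4 and of C19 was below the cut given in the methods. Whether those samples entered the pool is not stated. These integrity numbers were mostly lower in CELTIC than in STARDUST, and their part in the values was not tested. The panel holds no gene that defines lung tissue, so the labelled tissue could not be checked. In such bulk tissue, fewer cells of a type and less RNA per cell cannot be told apart.

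TGFBI (transforming growth factor beta induced) is a secreted protein that binds collagens and integrins and is induced by transforming growth factor beta. In lung it is made by macrophages and by cells of the connective tissue. SULF2 (sulfatase 2) is an extracellular enzyme that removes sulfate groups from heparan sulfate chains on the cell surface and in the matrix. It thereby changes how growth factors and chemokines are held there. MME (neprilysin, CD10), an enzyme of the cell surface that cleaves signalling peptides, is the gene at the place of T009 and is used below for comparison.

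Each gene was read by a pair of DNA probes that hybridize next to each other on its mRNA, a reporter probe that carries the colour code and a capture probe that holds the complex on the surface. Their sequences are shown because they define what was counted under each name. All 22 capture probes of the assay start with the same 25 bases, printed in lower case, and the 50 bases that follow, in capitals, recognise the gene. The boundary between gene and tag in the reporter probes was not given, and these are printed in lower case throughout.
TGFBI capture probe: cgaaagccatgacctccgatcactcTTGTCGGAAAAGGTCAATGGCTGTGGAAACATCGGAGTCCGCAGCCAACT
TGFBI reporter probe: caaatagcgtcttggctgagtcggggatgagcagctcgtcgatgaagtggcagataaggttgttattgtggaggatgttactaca
SULF2 capture probe: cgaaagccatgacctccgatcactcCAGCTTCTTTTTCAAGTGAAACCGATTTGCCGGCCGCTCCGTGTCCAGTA
SULF2 reporter probe: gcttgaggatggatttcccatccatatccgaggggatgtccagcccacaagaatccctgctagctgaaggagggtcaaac
The gene part of both capture probes had a G and C content of 52%. Its longest run of bases shared with a probe of any other gene of the assay was 7 bases for TGFBI and 8 bases for SULF2.

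Values are log2 normalized counts, in which a difference of 1 is a doubling. Unlogged, they were whole numbers times a single factor in every animal, and taking the smallest whole numbers that fit gives the counts behind them. On that basis TGFBI rested on 188 to 1438 counts per animal (median 437) and SULF2 on 67 to 228 (median 132). The counting error alone was 7.29% of the lowest TGFBI count and 12.2% of the lowest SULF2 count. The 20 features together summed to 13871 to 34415 counts per animal, with medians of 20457 in Ph1 and 19320 in Ph2. Both genes could thus be read in every sheep, SULF2 with the larger counting error.

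TGFBI was lower on average after oleic acid and LPS than after oleic acid alone, but the animals of both phenotypes overlapped widely. In the 14 Ph1 animals TGFBI lay between 8.0 and 9.90, with a median of 9.10. In the 9 Ph2 animals it lay between 7.83 and 9.87, with a median of 8.52. Only G33, a Ph2 animal, lay below all Ph1 animals, and the median of Ph1 was exceeded by 2 of 9 animals of Ph2. The means were 9.09 ± 0.58 in Ph1 (SD, n = 14) and 8.65 ± 0.69 in Ph2 (SD, n = 9), a difference of -0.44 ± 0.28 (SE), or 0.736-fold. An exact Mann-Whitney U test (two-sided) gave p = 0.124 and an adjusted p of 0.311 (Benjamini-Hochberg over the 20 features). The exact 95% interval of the shift between phenotypes ran from -1.14 to 0.12. The difference was therefore smaller than the spread within either phenotype, and the interval holds both 0 and a halving. Without SD8, a Ph2 animal of 24 h with the highest TGFBI of its phenotype, the difference was -0.60 with an exact p of 0.0352.

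SULF2 was also lower in Ph2, by a smaller amount but with less spread between animals. In Ph1 it lay between 6.25 and 7.71, with a median of 7.19. In Ph2 it lay between 6.34 and 7.61, with a median of 6.92. No Ph2 animal lay outside the range of Ph1, and 1 of 9, C4, lay above the Ph1 median. The means were 7.17 ± 0.33 in Ph1 (SD, n = 14) and 6.88 ± 0.36 in Ph2 (SD, n = 9), a difference of -0.29 ± 0.15 (SE), or 0.820-fold. The exact Mann-Whitney U test gave p = 0.0230, an adjusted p of 0.153 over the 20 features, and a 95% interval of the shift from -0.59 to -0.080. The unadjusted p below 0.05 rests on the ranks. By an exact permutation test of the means p was 0.0628, and in limma with phenotype, time point and study in the model it was 0.136.

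Across the panel, 3 of 20 features (15%) passed an unadjusted p of 0.05 in this comparison (exact Mann-Whitney), and 2 of 20 (10%) had it with a lower level in Ph2, SULF2 among them. After adjustment 0 of 20 (0%) were below 0.05 in this test, and likewise in limma, where 2 of 20 (10%) had an unadjusted p below 0.05. By p-value SULF2 stood at place 3 of the 20 features and TGFBI, tied with CD177, at place 7. The mean of 9 of 20 features (45%) was lower in Ph2, so a lower mean by itself sets neither gene apart from the panel. TGFBI had the second largest difference among these 9 after MME, whose difference was -0.49 (exact p = 0.0622).

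**Figure D1:**
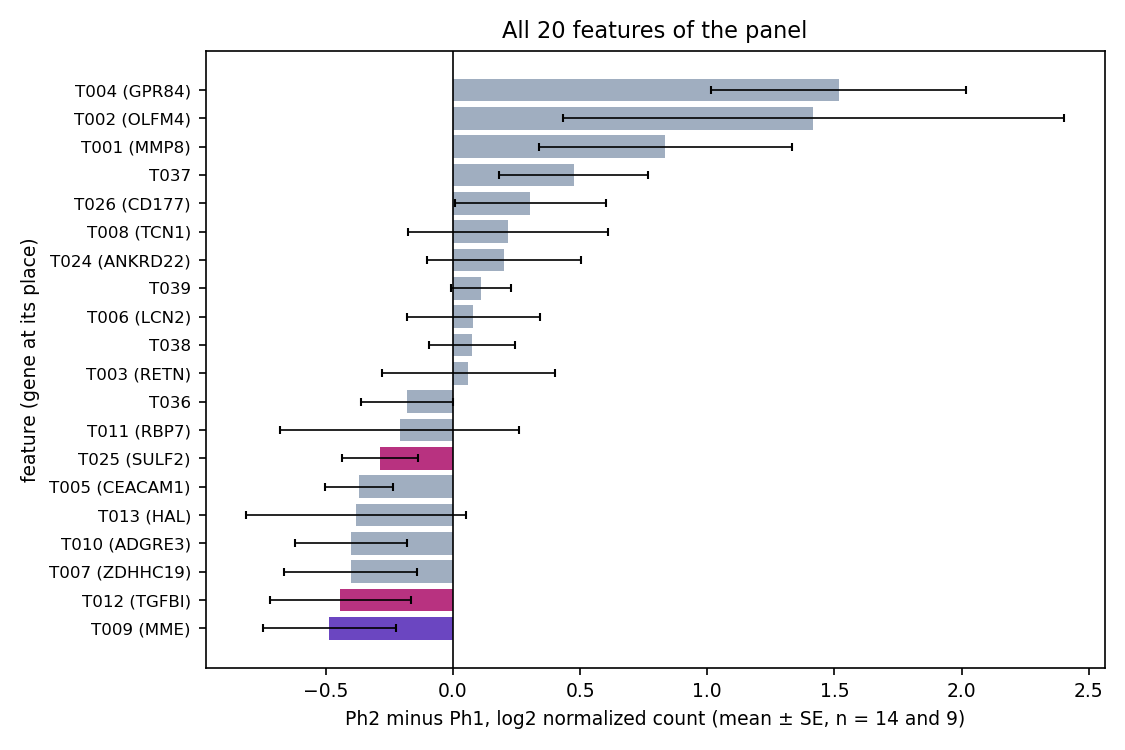
Difference of the mean log2 normalized count between Ph2 (n = 9) and Ph1 (n = 14) for all 20 features, with bars of 1 SE; TGFBI and SULF2 are in magenta, MME (T009) in violet. TGFBI (-0.44) and SULF2 (-0.29) lie among the 9 features with a lower mean in Ph2, and the largest difference of the panel is that of GPR84 (1.52).

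At 6 h, TGFBI in Ph1 was 8.65 in SD6, 8.25 in C1, 9.47 in C2, 9.90 in C3 and 8.0 in C11. In Ph2 it was 8.13 in C4, 8.67 in C5 and 7.83 in G33. C2 and C3 lay above all Ph2 animals, while the other Ph1 animals of 6 h fell into their range. The means were 8.85 ± 0.80 (SD, n = 5) and 8.21 ± 0.42 (SD, n = 3), a difference of -0.65 with an exact p of 0.393. Without C3 it was -0.39.

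At 12 h, TGFBI in Ph1 was 9.71 in C17, 9.13 in C18, 9.06 in C21 and 8.92 in C19. In Ph2 it was 9.01 in G34, 8.11 in SD4 and 8.52 in SD13. Only G34, the sole CELTIC animal among them, reached into the Ph1 range, just above C19. The means were 9.20 ± 0.35 (SD, n = 4) and 8.55 ± 0.45 (SD, n = 3), a difference of -0.66 with an exact p of 0.114.

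At 24 h, TGFBI in Ph1 was 9.81 in SD2, 9.43 in SD7, 9.37 in SD10, 8.53 in SD1 and 9.03 in SD14. In Ph2 it was 9.87 in SD8, 8.17 in SD9 and 9.52 in SD11. The Ph2 animals thus included both the highest and the lowest value of this time point. The means were 9.23 ± 0.48 (SD, n = 5) and 9.19 ± 0.90 (SD, n = 3), a difference of -0.046 with an exact p of 0.786. It was -0.39 without SD8 and 0.46 without SD9, and the sign turned also without SD2 or SD7. The medians went the other way, at 9.37 in Ph1 and 9.52 in Ph2.

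SULF2 in Ph1 at 6 h was 7.17 in SD6, 7.54 in C1, 7.38 in C2, 7.28 in C3 and 6.98 in C11. In Ph2 it spread more widely, with 7.61 in C4, 6.34 in C5 and 6.95 in G33. C4 lay above and the other two lay below all Ph1 animals of that time. The means were 7.27 ± 0.21 (SD, n = 5) and 6.97 ± 0.63 (SD, n = 3), a difference of -0.30 with an exact p of 0.571. The difference was 0.0063 without C5 and -0.62 without C4.

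At 12 h, SULF2 in Ph1 was 7.71 in C17, 7.20 in C18, 7.09 in C21 and 7.08 in C19. In Ph2 it was 6.92 in G34, 6.68 in SD4 and 6.62 in SD13. All 3 Ph2 animals lay below all 4 Ph1 animals. The groups did not overlap, in either direction, for 6 of 20 features (30%) at 12 h, among them the neutrophil genes OLFM4, LCN2 and TCN1, which were higher in Ph2. The means were 7.27 ± 0.30 (SD, n = 4) and 6.74 ± 0.16 (SD, n = 3), a difference of -0.53. The exact Mann-Whitney p of 0.0571 is the smallest that 4 and 3 animals allow. The Ph1 animals were all of CELTIC and SD4 and SD13 of STARDUST, so phenotype and study cannot be told apart for those animals. G34, of CELTIC like the Ph1 animals, was the closest to them.

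At 24 h, SULF2 in Ph1 was 7.08 in SD2, 7.24 in SD7, 7.29 in SD10, 7.0 in SD1 and 6.25 in SD14. In Ph2 it was 6.70 in SD8, 7.0 in SD9 and 7.08 in SD11. All Ph2 animals lay between SD14 and the highest Ph1 animal. The means were 6.98 ± 0.42 (SD, n = 5) and 6.93 ± 0.20 (SD, n = 3), a difference of -0.045 with an exact p of 0.786. Without SD14 it was -0.23, and the sign turned without SD8 (0.069), SD7 or SD10.

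**Figure D2:**
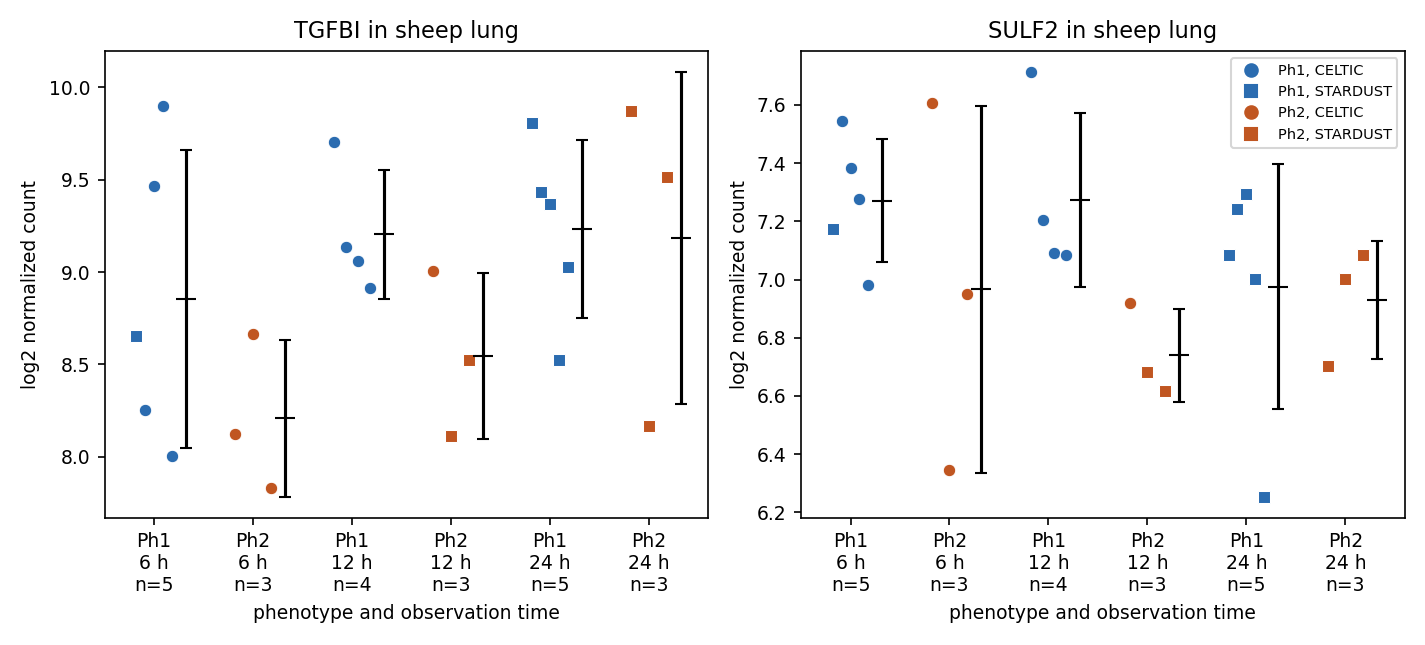
Log2 normalized count of TGFBI (left) and SULF2 (right) in every sheep, by phenotype and observation time, with circles for CELTIC, squares for STARDUST and the mean ± SD of each group in black. SULF2 of the 3 Ph2 animals at 12 h lies below that of the 4 Ph1 animals, and for TGFBI the phenotypes overlap at each time.

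Both genes therefore had a lower mean in Ph2 at 6, 12 and 24 h, as had 4 of 20 features (20%), against 55%, 45% and 50% of the features at the single times, with the difference at 24 h the smallest for either gene. With the median of the 20 features subtracted in every animal, the differences at 24 h turned to 0.17 for both, and those at 6 h grew to -0.996 for TGFBI (exact p = 0.0714) and -0.65 for SULF2 (exact p = 0.250). That median was itself lower in Ph2 by 0.21 at 24 h and higher by 0.35 at 6 h. Whether the phenotype difference changed with time was tested with a phenotype by time term in limma. In this limma model p was 0.536 for TGFBI and 0.49 for SULF2, with an adjusted p of 0.803 for both, and 1 of 20 features (5%) had an unadjusted p below 0.05. A change of the difference with time was thus not shown. Within single time points, 0 of 20 features (0%) passed an unadjusted p of 0.05 at 6 or 24 h (exact Mann-Whitney). Only groups without overlap could pass there, at the smallest possible p of 0.0357. None could pass at 12 h, since the smallest p that 4 and 3 animals allow in this test is 0.0571.

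Within Ph1, TGFBI averaged 8.85, 9.20 and 9.23 at 6, 12 and 24 h (exact permutation Kruskal-Wallis test, p = 0.790), and SULF2 averaged 7.27, 7.27 and 6.98 (exact p = 0.525). Within Ph2, TGFBI averaged 8.21, 8.55 and 9.19 (exact p = 0.296) and SULF2 6.97, 6.74 and 6.93 (exact p = 0.439). In the same test, 4 of 20 features (20%) had an unadjusted p below 0.05 in Ph1 and 1 of 20 (5%) in Ph2. Ranked by mean, the groups ran from Ph1 at 24 h down to Ph2 at 6 h for TGFBI and from Ph1 at 12 h down to Ph2 at 12 h for SULF2. None of the 5 gaps between neighbours in either order exceeded the larger SD of the pair of groups.

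A difference between studies was not shown for either gene. In Ph1, the CELTIC animals averaged 9.05 ± 0.66 for TGFBI (SD, n = 8) and the STARDUST animals 9.14 ± 0.49 (SD, n = 6), with an exact p of 1 and a 95% interval of the shift from -0.61 to 0.77. SULF2 in Ph1 was 7.28 ± 0.25 and 7.01 ± 0.38 (exact p = 0.282, interval -0.71 to 0.090), a difference of -0.28 that was -0.13 without SD14. In Ph2, TGFBI averaged 8.41 ± 0.53 among 4 CELTIC and 8.84 ± 0.81 among 5 STARDUST sheep (SD), with an exact p of 0.556. That difference of 0.43 was 0.17 without SD8, 0.24 without G33 and 0.26 without SD11. SULF2 in Ph2 was 6.95 ± 0.52 and 6.82 ± 0.21 (exact p = 0.905). In this comparison, 5 of 20 features (25%) in Ph1 and 2 of 20 (10%) in Ph2 had an unadjusted p below 0.05. These intervals leave room for differences between studies as large as those between phenotypes.

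Within the studies, TGFBI was lower in Ph2 by 0.65 among CELTIC animals and by 0.30 among STARDUST animals (differences of -0.65 and -0.30, exact p = 0.109 and 0.537). SULF2 differed by -0.33 and -0.19 (exact p = 0.154 and 0.247). In the same comparison, 6 of 20 features (30%) in CELTIC and 1 of 20 (5%) in STARDUST passed an unadjusted p of 0.05. A limma model with a phenotype by study term gave adjusted p-values of 0.803 for TGFBI and 0.825 for SULF2, with 1 of 20 features (5%) at an unadjusted p below 0.05. The difference in the pooled animals thus had the same sign in both studies for both genes, at a larger size in CELTIC, and a difference between the studies was not shown. All sheep of 24 h came from STARDUST, so study and time overlap in part, and 3 STARDUST sheep were of 6 or 12 h.

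**Figure D3:**
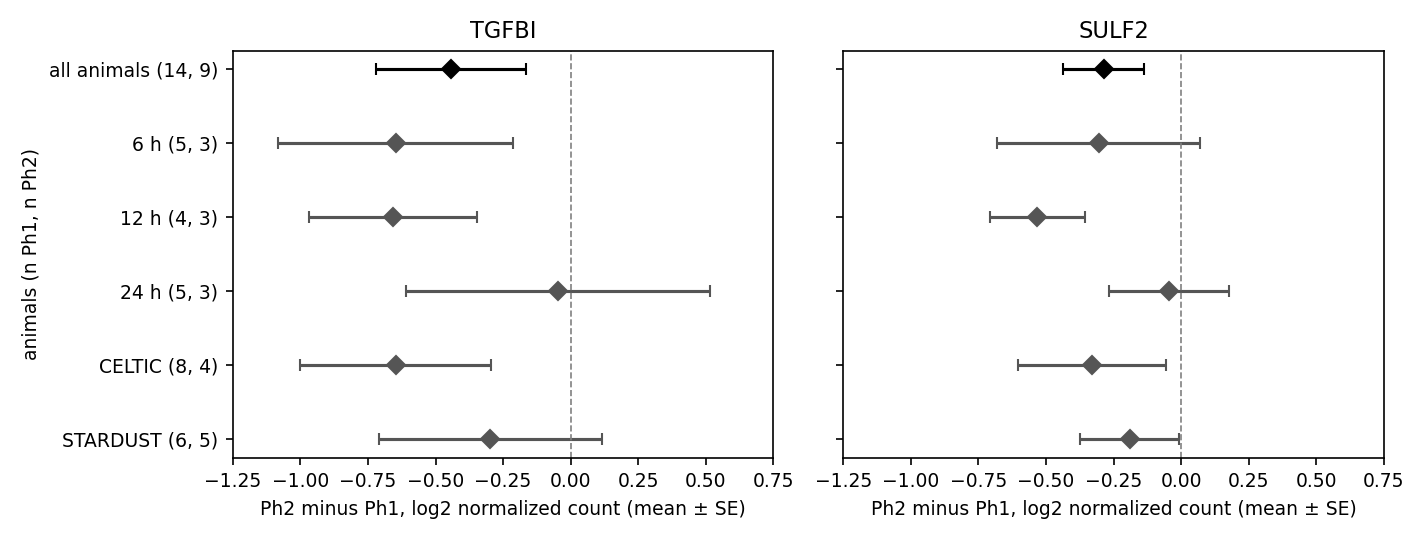
Difference of the mean log2 normalized count between Ph2 and Ph1 (diamonds, bars of 1 SE) for TGFBI and SULF2 over all animals, at each time point and in each study, with the number of Ph1 and Ph2 animals in brackets. All 6 differences of the means are below 0 for either gene, and those at 24 h (-0.046 and -0.045) are nearest to it. By the medians, TGFBI at 24 h is not lower in Ph2.

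Across all 23 sheep a relation between TGFBI and SULF2 was not shown, while at 12 h alone the genes ran together. Pearson's r was 0.17 (permutation test, p = 0.448) and Spearman's rho 0.31 (p = 0.151 by permutation). Without G33 and C11, the animals farthest from the median of TGFBI, r was 0.15. It was 0.22 within Ph1 and -0.20 within Ph2, 0.24 among CELTIC and 0.22 among STARDUST animals, with permutation p-values between 0.451 and 0.611. With the mean of each phenotype and time point removed, r was 0.10. At 6 h and 24 h alone r was 0.10 and 0.080 (exact p = 0.810 and 0.864, n = 8 each). At 12 h, where the sheep ran from SD4 and SD13 at the low end to C17 at the top, r was 0.92 (exact p = 0.00496, n = 7) and rho 0.93 (exact p = 0.00675). Without SD4 and C17, the animals farthest from the median of TGFBI, it was also 0.92 (exact p = 0.0417, n = 5). Those 7 sheep include both phenotypes, which did not overlap in SULF2, and with 4 and 3 animals r was not computed within them. SD4 and SD13, at the low end, were also the only STARDUST sheep of that time. The agreement at 12 h was not particular to this pair. There r was 0.89 for T009 and TGFBI, and for T009 and SULF2 it was 0.69 (exact permutation p = 0.114), with rho 0.82 (exact permutation p = 0.0341). Whether r differed between time points was not tested. Over all animals r was 0.070 without C17 and 0.28 without C4. These values belong to 33 correlations computed for the 3 pairs of TGFBI, SULF2 and T009, of which only the p-values over all animals were adjusted.

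TGFBI followed T009, the feature at the place of MME. The 6 sheep with the lowest T009 (SD9, C11, G33, C1, SD4 and C4) were also the 6 with the lowest TGFBI. The number 6 was not set by a rule. The next lowest in T009 was C3, which had the highest TGFBI of all sheep (9.90). Over 23 sheep r was 0.65 (permutation p = 9.20e-04, adjusted p = 0.00276 over the 3 pairs of TGFBI, SULF2 and T009) and rho 0.61 (permutation p = 0.00255, adjusted p = 0.00765). Without SD9 and C11, the animals farthest from the median of T009, r was 0.57 (permutation p = 0.00802). With the means of phenotype and time point removed it was 0.62 (permutation p = 0.00129). That permutation took no account of the removed means or of the unequal spread of the groups, so its p can be too small. Leaving out each animal in turn, r lay between 0.60 and 0.74.

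Within subsets of the sheep r varied, and the differences between subsets were not tested. It was 0.68 among CELTIC animals (permutation p = 0.0158) and 0.66 among STARDUST animals (permutation p = 0.0115). Without the 2 animals farthest from the median of T009, these fell to 0.53 (permutation p = 0.117) and 0.31 (permutation p = 0.422), so within STARDUST the relation rests on SD9 and SD4, while within CELTIC r stayed of similar size with fewer sheep. Within Ph2, r was 0.77 (exact p = 0.0136, n = 9), and 0.90 without SD9 and SD11. Within Ph1 it was 0.45 (permutation p = 0.105) and -0.24 without C11 and C1, so that a relation within Ph1 was not shown. For the sheep of 6, 12 and 24 h it was 0.40, 0.89 and 0.67 (exact p = 0.330, 0.00119 and 0.0663, n = 8, 7 and 8), the last falling to 0.25 without SD9 and SD14. All features of an animal share its normalization factor. When each animal was centred on the mean of T036 to T039, the 4 features that stand after the markers in the table, r was 0.72. This centring subtracts the same value from both genes and can raise r by itself, so it does not test the relation. It also raised r from 0.17 to 0.34 for TGFBI and SULF2 and from -0.061 to 0.27 for T009 and SULF2.

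T009 moved with study and with time within Ph1. It averaged 12.20 ± 0.51 in the 8 CELTIC and 13.03 ± 0.18 in the 6 STARDUST sheep (SD), an exact Mann-Whitney p of 6.66e-04 and an adjusted p of 0.00666, whereas TGFBI differed by 0.081. It also averaged 12.03, 12.61 and 13.04 at 6, 12 and 24 h (exact permutation Kruskal-Wallis p = 0.00293, adjusted p = 0.0196; 15% of the features passed after adjustment). Within CELTIC alone it was 0.82 higher at 12 h than at 6 h (exact p = 0.0286, 4 Ph1 sheep each). The STARDUST sheep of Ph1 were of 24 h apart from SD6. For SULF2 a relation to T009 was not shown over all sheep, with r of -0.061 (permutation p = 0.784) and rho of 0.065 (permutation p = 0.770). Its r with T009 was 0.27 with animals centred on T036 to T039 and 0.47 with animals centred on the median of the 20 features. The same centring on the median gave r of 0.54 for TGFBI and SULF2. The median itself varied between animals from 7.37 to 9.56, and it is taken from every feature that is centred on it.

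**Figure D4:**
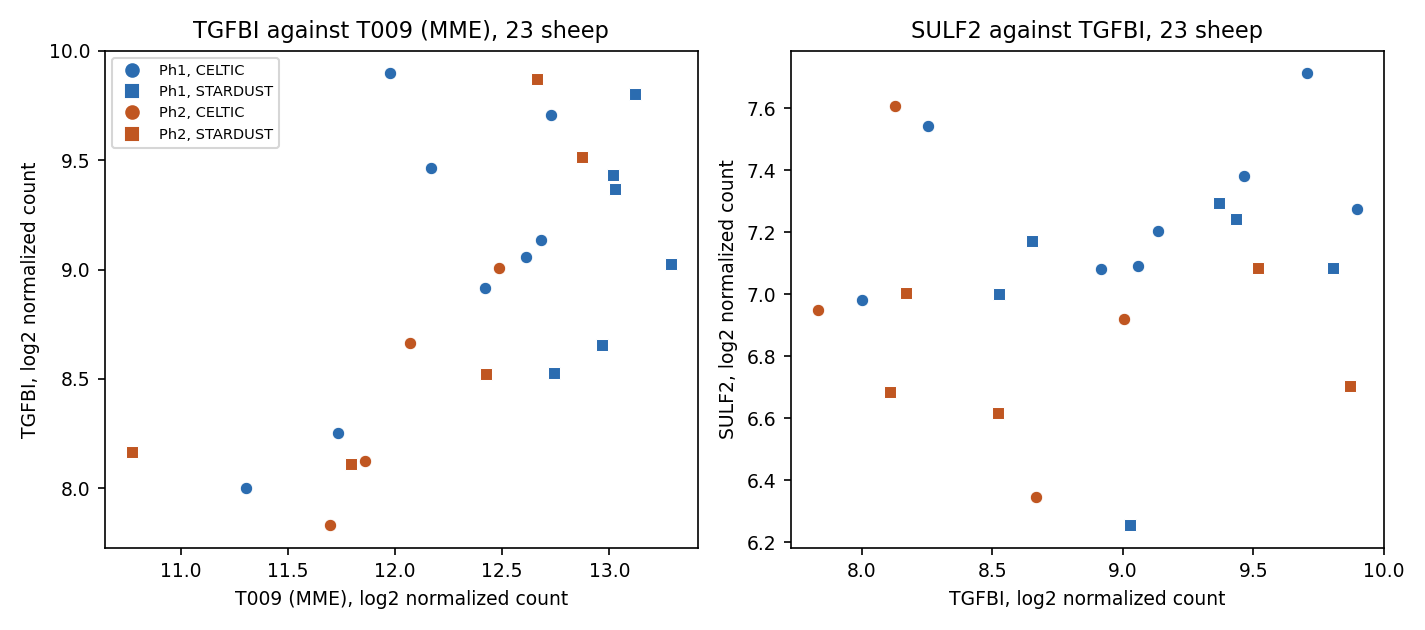
Log2 normalized count of TGFBI against T009 (left) and of SULF2 against TGFBI (right) in 23 sheep, coloured by phenotype, with circles for CELTIC and squares for STARDUST. TGFBI increases with T009 (r = 0.65), with SD9 far to the left, and for SULF2 against TGFBI a relation was not shown (r = 0.17).

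Among the 19 other features, those most like TGFBI by Spearman's rho over 23 sheep were T009 (0.61), T036 (0.46) and T038 (0.45), and the least like was OLFM4 at T002 (-0.70). T036 and T038 stand past the places of the markers and have no gene name here. OLFM4 (olfactomedin 4) marks a subset of neutrophils. Its mean was higher in Ph2 by 1.42 (exact p = 0.159). Its rho with TGFBI was -0.73 among CELTIC and -0.66 among STARDUST animals, -0.45 within Ph1 and -0.48 within Ph2. The features most like SULF2 were TGFBI (0.31), ADGRE3 at T010 (0.29) and ZDHHC19 at T007 (0.28), and the least like was RETN at T003 (-0.35). T007 had a median of under 20 counts. These values are ranks among 19 features and are given as a description with no test. Over all 190 pairs of features the median rho was 0.045.

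**Figure D5:**
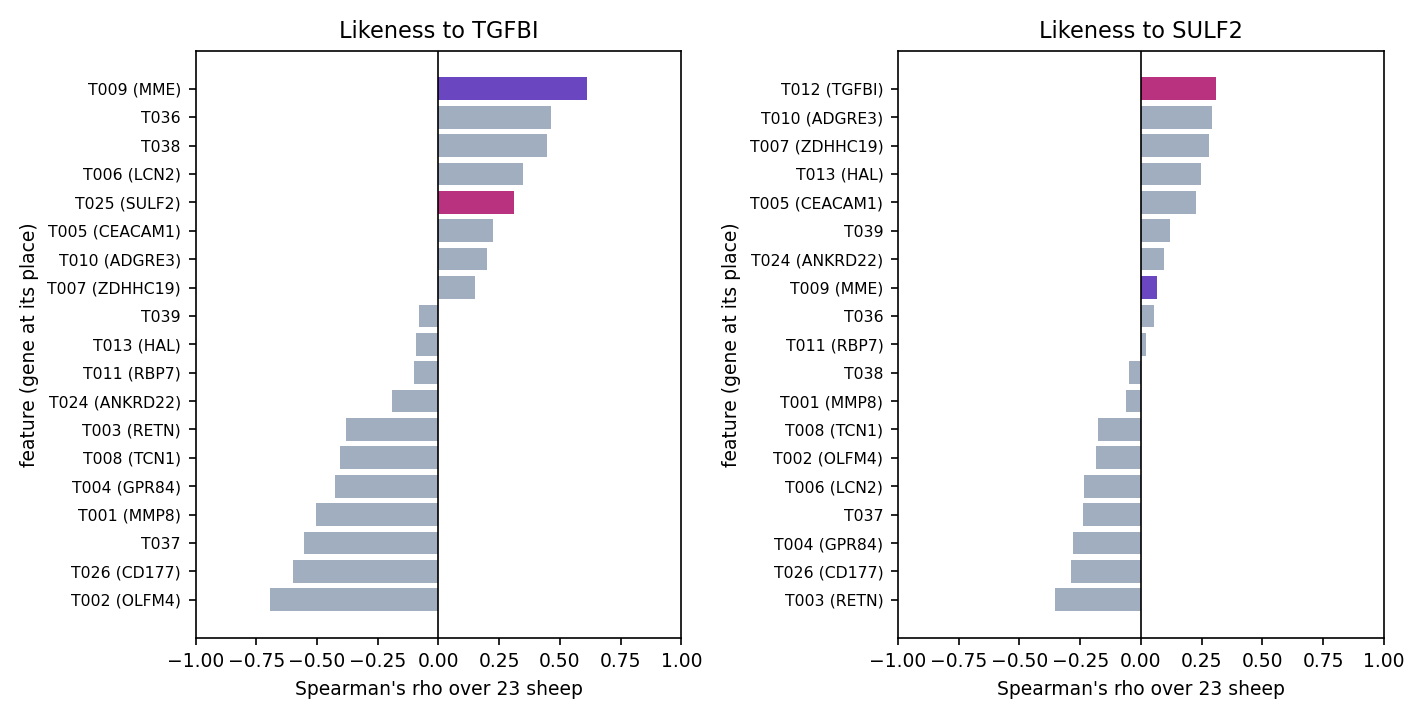
Spearman's rho over 23 sheep of TGFBI (left) and SULF2 (right) with each of the 19 other features, T009 in violet and the other matrix gene in magenta. For TGFBI rho runs from 0.61 (T009) to -0.70 (OLFM4), and for SULF2 from 0.31 (TGFBI) to -0.35 (RETN).

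Neutrophils enter the injured lung, and 5 genes of the panel were taken as markers of their granules or surface: MMP8, OLFM4, LCN2, TCN1 and CD177. The list could have been drawn otherwise. Of the other markers selected by the study, CEACAM1, MME and ADGRE3 had a lower mean in Ph2 (-0.37, -0.49 and -0.40). Their rho with TGFBI was positive (0.22, 0.61 and 0.20). GPR84, RETN and ANKRD22 went the other way in both. The counts below hold for the 5 listed genes only. Correlations of these 5 with TGFBI and SULF2 were summarised after the values had been seen. TGFBI had a negative rho with 4 of these 5, with CD177 (-0.60), MMP8 (-0.50) and TCN1 (-0.41) besides OLFM4, and a rho of 0.35 with LCN2. Over the 19 other features, rho was positive with 8 for TGFBI and with 10 for SULF2. It was negative with 4 of 5 also within either phenotype and within either study. SULF2 had a negative rho with 5 of 5, none below -0.29, and with 0 of 5 when each animal was centred on its median. All 5 markers had a higher mean in Ph2, with differences from 0.081 (LCN2) to 1.42 (OLFM4), none of which passed an unadjusted p of 0.05 (exact Mann-Whitney). Among CELTIC animals all 5 were higher in Ph2 and 3 of them had an unadjusted p below 0.05, where 7 of 20 features (35%) had a lower mean in Ph2 and 6 of 20 (30%) passed that p in either direction. At 24 h 2 of 5 were higher, against 10 of 20 features (50%) with a lower mean. Their summed unlogged level, as log2, lay between 11.74 and 13.48 in Ph1 (median 12.51) and between 11.70 and 13.47 in Ph2 (median 12.66). On average LCN2 and TCN1 weigh most in this sum, with Ph1 means of 11.56 and 10.94. Those of OLFM4, MMP8 and CD177 were 5.03, 4.44 and 4.17. The sum therefore follows mainly LCN2 and TCN1 and does not measure neutrophil content. No animal had a marker at 0, but MMP8 and CD177 were low. So was OLFM4 in some groups, with means of 3.73 in Ph1 at 12 h and 3.91 in Ph2 at 24 h. What part the neutrophil content has in the values of TGFBI and SULF2 was not tested.

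The panel holds 4 genes of matrix proteins, matrix-modifying enzymes and extracellular peptidases. Of these, TGFBI, SULF2 and MME had a lower mean in Ph2, as had 9 of 20 features (45%) of the panel. SULF2 alone was below an unadjusted p of 0.05 (exact Mann-Whitney), as were 3 of 20 features (15%). MMP8, the collagenase of neutrophils, had a higher mean in Ph2, by 0.83 (exact p = 0.141). The median difference of the 4 genes, -0.36, lies midway between those of TGFBI and SULF2 themselves and adds nothing to them. The study had selected 6 genes as higher in the human hypoinflammatory subphenotype, MME, RBP7, ADGRE3, TGFBI, HAL and SULF2. That selection was made in blood leukocytes of patients, whereas the values here come from lung tissue of sheep. All 6 had a lower mean in Ph2, against 45% of the features of the panel. Of them 1, SULF2, had an unadjusted p below 0.05 (exact Mann-Whitney), against 15% of the panel. RBP7 (T011) carries little weight among them. It had a median of under 20 counts, and the paper excluded it as below the detection limit. At 24 h, 3 of the 6 were lower in Ph2, as were 10 of 20 features (50%), and TGFBI and SULF2 were 2 of these 3.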

How the data were processed

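Expression was measured in 23 sheep with a custom NanoString nCounter assay, which counts hybridized probe pairs without amplification. The deposited values of the 20 features are log2 normalized counts. According to the methods, the authors removed the background of negative controls, scaled each animal to 3 housekeeping genes (RPL19, TBP and POLR2A, as a geometric mean) and took logarithms. None of the 1140 sets of 3 deposited features had a constant mean log2 value between animals (lowest SD 0.137), so the scaling could not be retraced. Counts recovered here fit within a tolerance of 1e-04, and they cover counting error only.

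Groups came from the sample labels. TGFBI and SULF2, and the gene lists, were chosen with earlier results of these data known. Named were these genes, T009, list members, and the 3 features most like and 1 least like each gene. GPR84, CEACAM1 and ANKRD22 were named after their values were seen. Phenotypes and studies were compared by exact Mann-Whitney U tests (two-sided) with Hodges-Lehmann intervals (95%), time points by an exact permutation Kruskal-Wallis test, interactions by limma, and correlations by 100000 permutations (exact for up to 9 animals). Benjamini-Hochberg adjustment covered the 20 features. Alternatives were judged at an unadjusted p of 0.05, the threshold of the study's methods, a choice made with the values known, since 0 of 20 features passed after adjustment in the phenotype comparison. Tests were first run on simulated data. Alternatives covered the test, covariates, studies, time points, centring, scale, low counts and leaving out each animal. Python 3.11.15, numpy 2.4.6, scipy 1.17.1, pandas 2.3.3, R 4.3.3 and limma 3.58.1 were used.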

Additional observations from a re-analysis of the deposited data

Results flagged for a closer look

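SULF2 of SD14, a Ph1 animal of 24 h, was 6.25, while the other Ph1 animals of that time had 7.0 to 7.29. It stood apart from them, and from the other Ph1 animals of STARDUST, by Dixon's ratio. Of 16 groups of 4 to 10 animals examined for both genes, 2 stood out, both through this animal. The Ph1 group of 24 h lies within the Ph1 group of STARDUST, so both flags are a single observation. The ratio was 0.719 in both, against cuts of 0.710 and 0.625. Because the groups overlap, their number cannot be set against a rate by chance. TGFBI of SD14 was 9.03, inside the range of its group. Without SD14 the difference of SULF2 between Ph2 and Ph1 over all animals was -0.36 (exact Mann-Whitney U test, p = 0.00556).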

How the results depend on the processing

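No paired analysis was possible because each sheep stands in 1 group. SULF2 kept its lower level in Ph2 in all of them, but the unadjusted p of 0.0230 rose above 0.05 in 10. The difference was -0.29 in the exact permutation test of means (p = 0.0628), in limma with phenotype (p = 0.0847) or with phenotype and time point (p = 0.0860), and with labels permuted within time points (exact p = 0.0688). It was -0.26 with study and -0.25 with time point and study in limma (p = 0.106 and 0.136), -0.33 among CELTIC and -0.19 among STARDUST animals, -0.32 with animals centred on the median of 20 features (exact p = 0.0721), and -25.8 on the unlogged scale (exact p = 0.0681). Leaving out each animal gave -0.38 to -0.22 (exact p between 0.00290 and 0.0421). TGFBI kept its sign and stayed above 0.05, except without SD8 (-0.60, exact p = 0.0352), and ranged from -0.60 to -0.34 with each animal left out. Without T007 and T011, the adjusted p was 0.280 for TGFBI and 0.138 for SULF2.

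Centring on the median turned the differences at 24 h to 0.17 for both genes, moved those at 6 h from -0.65 to -0.996 for TGFBI and from -0.30 to -0.65 for SULF2, and moved the difference between studies in Ph2 from 0.43 to 0.98 for TGFBI and from -0.14 to 0.41 for SULF2. In Ph1 that between studies went from 0.081 to 0.24 for TGFBI and from -0.28 to -0.11 for SULF2. The animal medians differed between studies in Ph2 by -0.55. The difference of SULF2 at 12 h, -0.53, had p = 0.0286 in the exact permutation test of means. With each animal left out, the 24 h difference lay between -0.39 and 0.46 for TGFBI and between -0.23 and 0.069 for SULF2, and at 6 h between -0.88 and -0.39 for TGFBI and between -0.62 and 0.0063 for SULF2. The difference between studies lay between -0.069 and 0.20 for TGFBI and between -0.33 and -0.13 for SULF2 in Ph1, and between 0.17 and 0.63 for TGFBI and between -0.34 and 0.080 for SULF2 in Ph2. The r of T009 and SULF2 was -0.061, 0.47 and 0.27 with centring on the median and on T036 to T039, 0.12 among CELTIC and 0.064 among STARDUST animals, and -0.12 to 0.11 with an animal left out. The r of TGFBI and SULF2 was 0.54 with centring on the median (permutation p = 0.00954) and -0.20 in Ph2, and that of T009 and TGFBI 0.45 in Ph1. The number of features below 0.05 was 3, and 5 with time point or study in limma, 6 in CELTIC, 1 in STARDUST, 7 without the 24 h animals, 5 without C1, C11 or SD8 and 7 without SD11 (3 to 7 with each animal left out). The causes were not tested.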
